A study of Bos taurus with 12 samples.

Results

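RORA encodes retinoic acid receptor-related orphan receptor alpha, and its locus was described here site by site across a window around its annotated sites in dermal fibroblasts of Holstein heifers. The locus was taken as every tested cytosine of a CpG on bovine chromosome 10 (build bosTau8) from 48900000 to 49750000, a window that holds all sites the authors annotated to RORA. It held 151 tested sites, of 28613 on chromosome 10 and 838705 in all. The sites annotated to RORA ran from 48977624 to 49682766, and whether tested sites outside that span lie in the gene is not known here. Sites of RORA are below the sites of the window. Within the window, sites were taken by position alone. The window itself was set to hold the RORA sites on the authors' list, whose sites have P below 0.05 between the ages in these same data. A site is 1 cytosine on 1 strand, so a CpG can give a site on each strand, and the 151 sites belonged to 109 CpGs, of which 42 were tested on both strands.

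The cultures were primary dermal fibroblasts of 6 heifers, each sampled at 5 months of age (young cultures) and again at 16 months (old cultures), so that each animal is its own control. All 12 cultures were at passage 6 and were grown from frozen stocks with no treatment. The animals had been picked by the study from the middle of a ranked cohort for their response to lipopolysaccharide, which limits them as a sample of heifers. Methylation was measured by reduced representation bisulfite sequencing (RRBS), in which a restriction enzyme enriches CpG-rich fragments and bisulfite turns unmethylated cytosine into a base that is read as T. The methylation ratio of a site is the share of its reads that still show C, given here in percent, and the comparison asks how the ratio of each site differs between the ages of the same animal.

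RORA is a nuclear receptor that binds DNA at ROR response elements and activates transcription there. It drives the clock gene ARNTL, where the receptors NR1D1 and NR1D2 act against it, and it has known roles in lipid metabolism, the development of the cerebellum and the restraint of inflammatory signaling through NFKBIA. The gene is very long and most of its length is intron. In mammalian genomes CpG islands, which often lie at promoters, are mostly free of methylation, while isolated CpGs within genes are mostly methylated. A culture holds many cells, and a ratio between 0% and 100% does not tell whether cells or alleles differ within it. Whether the share of different fibroblast types changed between the ages was not tested, since methylation ratios hold no expression markers.

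The tested sites were unevenly spread over 791.05 kb, from position 48949689 to position 49740739. Sites at most 100 bp from their neighbor were joined into stretches, which gave 18 stretches, 13 of them with at least 3 sites. Distances below are in kb from the first tested site. Across the locus the 6 young cultures held 2167 to 2725 reads and the 6 old cultures 1836 to 2755, and a site in 1 culture had between 5 and 52 reads. The median of the mean reads per site was 13.9, against 14.2 over all tested sites. Reads were even in number in all 12 cultures at 40 of the 151 sites (26.5%), against 14.6% of all tested sites. The authors counted overlapping mates as 2 reads, so intervals at such sites are also given with the reads halved. Intervals are 95% Wilson intervals and cover counting error only.

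Most tested sites of the locus had little or no methylation at both ages. By the mean over the 12 cultures, 122 sites (80.8%) were below 20%, 27 sites (17.9%) were intermediate, between 20% and 80%, and 2 sites (1.32%) were above 80%. Over all tested sites these shares were 66.2%, 22.0% and 11.8%, and on chromosome 10 they were 79.7%, 13% and 7.34%. In RORA 72.7% of the single values were exactly 0%. Of the sites, 115 lay in 7 stretches of at least 3 sites with a mean level below 20% and the other 36 sites lay in 11 stretches, pairs or single positions between and beside them. Those 36 sites included the 27 intermediate and the 2 high ones, together with low sites, such as 48990415 with a level of 5.75% in the same stretch as 48990553 with 46.3%.

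**Figure D1:**
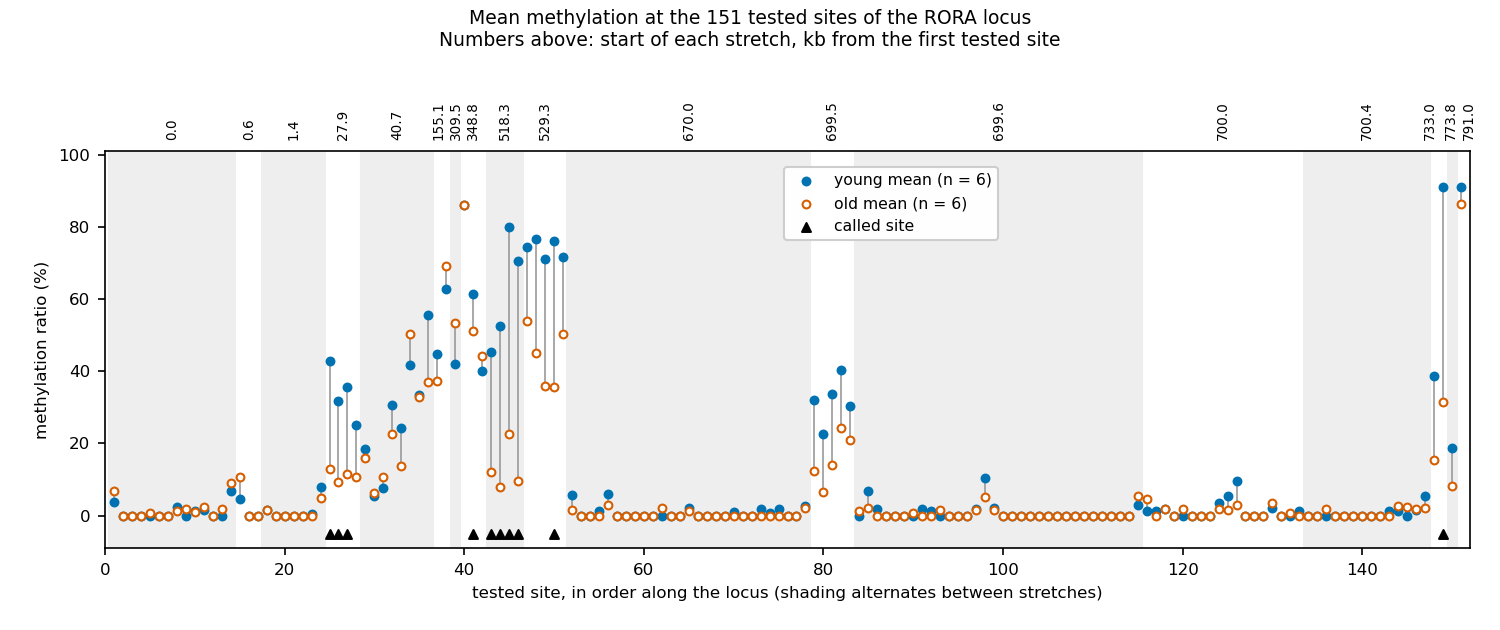
Mean methylation ratio (percent, vertical axis) of the 6 young and the 6 old cultures at each of the 151 tested sites in order along RORA (horizontal axis, not to genomic scale), with triangles under the 10 called sites. The young means stand above the old means at the blocks that start at 27.9, 518.3, 529.3, 699.5 and 733.0 kb, while the long runs of sites near 0% show little distance between the ages.

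The mean ratio over the 151 sites was higher at the younger age in each animal. The young cultures ranged from 10.9% to 13.6% and the old cultures from 7.21% to 8.59%, so the ages did not overlap. The means were 12.1% ± 1.15 and 7.74% ± 0.600 (SD, n = 6 each), a difference of 4.34 ± 1.14 percentage points over the 6 pairs. The differences of animals 1 to 6 were 2.5, 4.2, 3.63, 5.07, 5.05 and 5.62 points. The median site of RORA did not differ at all (0 points, as over all tested sites), so the mean came from a minority of sites. Over all tested sites the mean difference was 0.437 points, and on chromosome 10 it was 0.390 points. No p is given for a mean over sites of a gene that was chosen with results of these data known.

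In numbers of sites, the young mean was higher at 56 sites, the old mean at 26 and the means were equal at 69. At 119 sites the ages differed by less than 5 points. A difference of at least 10 points with young higher was seen at 23 sites, and with old higher at 1 site. None of these sites lay in a low-level stretch. The 36 sites outside those stretches had a mean of 47.4% ± 5.17 in the young cultures (41.4% to 53.9%) and of 29.7% ± 1.65 in the old cultures (27.9% to 32%), which did not overlap. The difference was 17.7 ± 4.93 points and lay between 11.8 and 23.4 points in every animal. These 36 sites include the 10 RORA sites of the authors' list, picked by P below 0.05 in these data, which enlarges the difference. The 17 intermediate sites not among those 10 differed by 11.8 ± 9.52 points, from 1.24 points in animal 2 to 28.1 points in animal 6.

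The sites of RORA called by the test of the study's methods were all more methylated in young cultures. A site is called where the paired test of the methods, run over all 838705 sites, had an unadjusted P below 0.05 with a mean difference of at least 10 points. This gave 10 young sites and 0 old sites of 151, where 1.12% of all tested sites were called young and 0.567% old (1.68% in either direction). All 10 were among the 27 intermediate sites, and of all intermediate sites 3.38% were called young and 1.59% old. The 10 sites belonged to 7 CpGs in 5 stretches, so they are not 10 separate measurements. They were also the 10 sites that the authors' list annotated to RORA, each to an intron, with 0 in a promoter or exon and 0 in a CpG island. That list holds only sites with P below 0.05 in the same paired comparison of these data, so the match is no separate evidence. The intron count likewise covers only sites already picked by that comparison. The remaining sites have no annotation here, and the study had chosen RORA for its higher methylation in these same young cultures, so its direction is not independent evidence.

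No call held after adjustment for all sites tested. With the Benjamini-Hochberg adjustment, the smallest adjusted P in RORA was 0.889 with the paired test and 0.848 with limma, and 0 of all 838705 sites had an adjusted P below 0.05 with either tool. Without adjustment the paired test gave 24094 sites of the whole table a P below 0.05 and limma gave 28425. In RORA 11 sites had such a P, the 10 called ones and position 49649357, whose means of 6.83% ± 3.97 and 2.00% ± 3.35 differed by 4.83 points. For single sites an exact permutation test was used that flips the sign of the paired differences (two-sided, 6 animals), whose smallest possible P is 0.031 and needs the same direction in all 6. In RORA 6 sites reached it with young higher, against 0.693% of all tested sites and 2.34% of the intermediate ones, and 0 reached it with old higher, against 0.393% of all tested sites. At 4 sites the lowest young value was above the highest old value, which held at 0.0936% of all tested sites and at 0.289% of the intermediate ones. The 6 sites and the 4 sites were all among the 10 called ones, picked by P below 0.05 in these data. The window was set to hold those called sites, so neither count can be read against these shares. Among the 6, positions 49468026 and 49468027 are the strands of the same CpG and are not separate measurements.

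The widest gap between the ages lay at 518.3 kb, in a stretch of only 8 bp with 2 CpGs, both tested on both strands (positions 49468020 to 49468027, RORA intron). Over its 4 sites the young cultures of animals 1 to 6 had 58.8%, 77.2%, 43.8%, 68.5%, 68.2% and 56.2% methylation. The old cultures had 22.5%, 6.00%, 17.5%, 8.50%, 10% and 13.8%. Every young culture was above every old one. The means were 62.1% ± 11.8 and 13% ± 6.15, a difference of 49.1 ± 16.9 points (SD, n = 6). Of 61932 stretches with at least 3 sites in the whole table, 5 had a difference this large in favor of young, itself included. In reads, 229 of 376 were methylated in the young cultures (60.9%) and 54 of 416 in the old ones (13%). Within each strand both sites had the same reads in every culture, so they came from the same fragments. At all 4 sites the reads were even in number in all 12 cultures, so these totals may count a molecule more than once.

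All 4 sites of this stretch were called, and the second CpG differed more than the first. At 49468027, on the minus strand, the young cultures of animals 1 to 6 had 60%, 75%, 31%, 75%, 83% and 100%, and the old cultures had 36%, 12%, 9%, 0%, 0% and 0%. The ages overlapped by 1 value, as the old culture of animal 1 was above the young culture of animal 3, but the young culture was higher within each animal. The means were 70.7% ± 23.4 and 9.5% ± 14, a difference of 61.2 ± 31.9 points (exact permutation P = 0.031, n = 6), and 8 sites of the whole table, itself included, had a difference this large. The precision of a single culture is low: the 100% of young animal 6 rested on 8 reads (67.6% to 100%, or 51.0% to 100% with halved reads), and the 0% of old animal 6 on 22 reads (0% to 14.9%, or 0% to 25.9%). On the plus strand of the same CpG, position 49468026, the young values were 100%, 100%, 75%, 75%, 80% and 50% and the old values 27%, 0%, 29%, 17%, 40% and 22%. There the ages did not overlap, and the difference was 57.5 ± 25.9 points (exact permutation P = 0.031, n = 6). With the reads of both strands summed, this CpG had 72.6% in young and 14.3% in old cultures, a difference of 58.3 ± 17.9 points (exact permutation P = 0.031, n = 6).

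The first CpG of the stretch gave the same direction on both strands. At 49468021, on the minus strand, young cultures had 55%, 67%, 31%, 62%, 50% and 50% and old cultures 18%, 12%, 18%, 0%, 0% and 0%. These values did not overlap, and the difference was 44.5 ± 17.5 points (exact permutation P = 0.031, n = 6). At 49468020, on the plus strand, young cultures had 20%, 67%, 38%, 62%, 60% and 25% and old cultures 9%, 0%, 14%, 17%, 0% and 33%. Here animal 6 was higher in its old culture, the ages overlapped, and the difference of 33.2 ± 29.2 points had an exact permutation P of 0.062 (n = 6). Summed over strands the CpG differed by 40.1 ± 19.3 points (exact permutation P = 0.031, n = 6).

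A pair of sites at 733.0 kb showed a gap of similar size (positions 49682702 and 49682766, minus strand). At 49682766, in a RORA intron, the young cultures of animals 1 to 6 had 100%, 92%, 71%, 100%, 100% and 83%, and the old cultures had 24%, 12%, 62%, 25%, 38% and 28%. The ages did not overlap, and animal 3 stood apart with the smallest gap. The means were 91.0% ± 11.9 and 31.5% ± 17.1, a difference of 59.5 ± 26.5 points (exact permutation P = 0.031, n = 6), and 12 sites of the whole table had a difference this large. Reads per culture at this site ran from 6 to 18. The neighboring site 49682702 was not called, with 38.8% ± 19.1 against 15.3% ± 13.2 and a difference of 23.5 points (exact permutation P = 0.094, n = 6). The young culture was higher in 5 of 6 animals at that site and in all 6 animals in the mean of the pair.

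**Figure D2:**
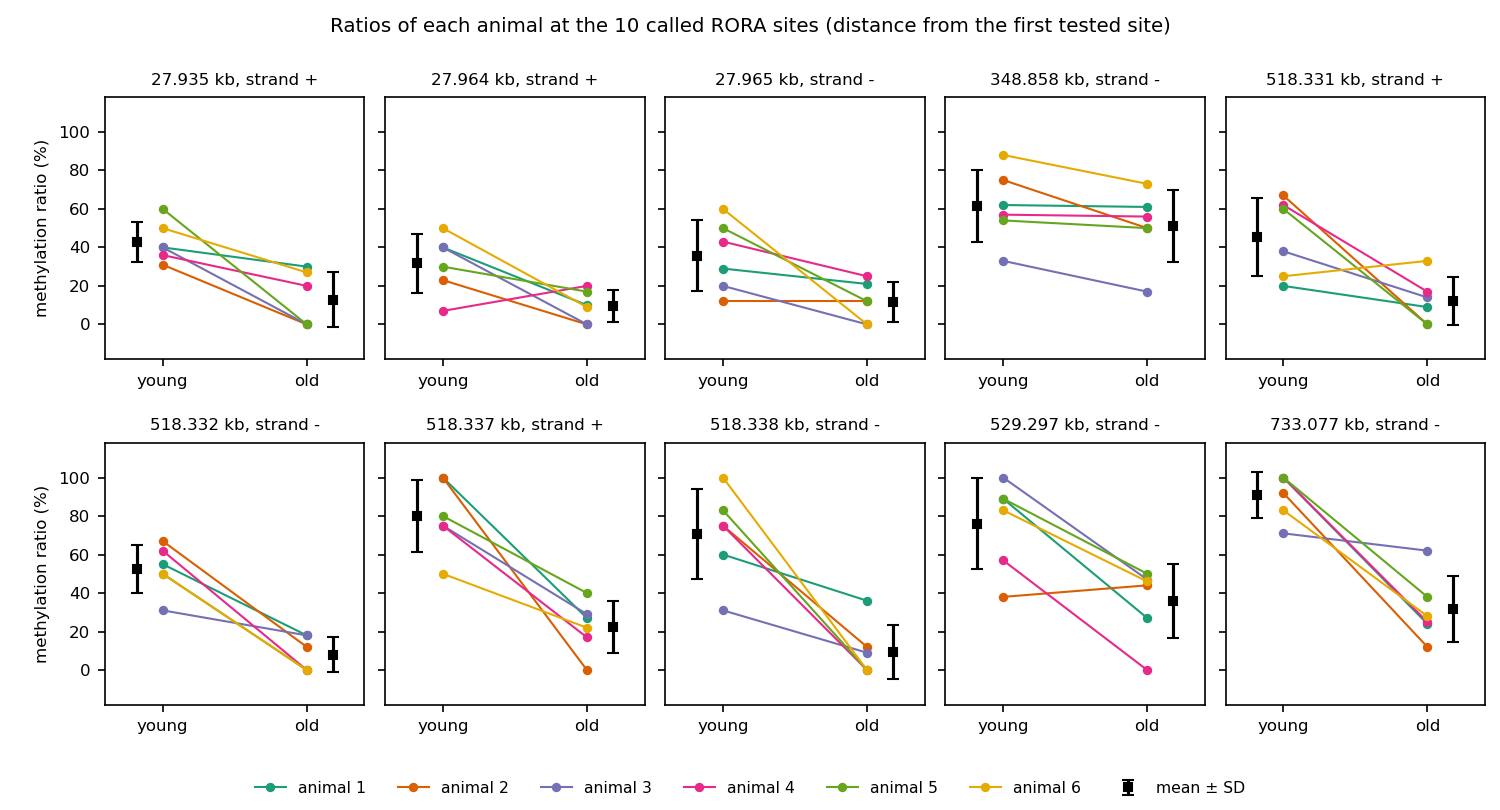
Methylation ratio (percent, vertical axis) of each animal at the 10 called RORA sites, each line joining the young and the old culture of 1 animal, with squares and bars for the mean ± SD of 6 cultures. Panels are titled by the distance from the first tested site and the strand. The lines fall from young to old in all 6 animals in the panels at 27.935, 348.858, 518.332, 518.337, 518.338 and 733.077 kb, and the panel at 348.858 kb has the flattest lines.

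Toward the low-coordinate end of the locus, a stretch of 4 sites at 27.9 kb had a higher young mean at a lower overall level (positions 48977624 to 48977681). Its young cultures had 27.2%, 19.5%, 30.0%, 28.8%, 47.5% and 50.0% in animals 1 to 6, and its old cultures 15.2%, 6.00%, 0%, 25.8%, 7.25% and 12.5%. The young culture was higher in every animal, by as little as 3.00 points in animal 4 and as much as 40.2 points in animal 5, and the ages overlapped. The means were 33.8% ± 12.1 and 11.1% ± 8.92, a difference of 22.7 ± 15.3 points (SD, n = 6), which 253 stretches of the whole table reached. In reads, 88 of 279 and 34 of 300 were methylated.

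Of those 4 sites, 3 were called, all in a RORA intron. At 48977624, young cultures had 40%, 31%, 40%, 36%, 60% and 50% and old cultures 30%, 0%, 0%, 20%, 0% and 27%. These did not overlap, and the difference was 30.0 ± 18.1 points (exact permutation P = 0.031, n = 6) on a mean of 8.33 reads. The strands of the next CpG, 48977653 and 48977654, differed by 22.3 ± 20.3 and 24.0 ± 21.8 points, with exact permutation P of 0.094 and 0.062 (n = 6). In animal 4 the plus strand went the other way (7% young, 20% old), and in animal 2 the minus strand was equal (12% at both ages). The fourth site, 48977681, had 25.2% ± 18.4 and 10.7% ± 14.8 and was not called (exact permutation P = 0.25, n = 6).

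The stretch at 529.3 kb was the most methylated of the losing ones, and it was the one in which an animal went clearly the other way (positions 49478983 to 49479026, 5 sites in 3 CpGs). A stretch of at least 3 sites is named losing here where the young mean was at least 10 points higher and the young culture was higher in at least 5 of 6 animals. Its young cultures had 84.4%, 35.2%, 94.4%, 65.8%, 79.6% and 84.4% in animals 1 to 6 and its old cultures 27.4%, 61.4%, 59.0%, 26.8%, 41.2% and 49.4%. Young was higher by 35.0 to 57.0 points in 5 animals, and in animal 2 it was 26.2 points lower. The means were 74.0% ± 21.2 and 44.2% ± 15.1, a difference of 29.8 ± 28.6 points (SD, n = 6), or 41.0 points without animal 2. A difference as large was seen in 90 of the 61932 stretches.

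Only position 49478986 of that stretch was called, in a RORA intron. Young cultures had 89%, 38%, 100%, 57%, 89% and 83% and old cultures 27%, 44%, 47%, 0%, 50% and 46%. The ages overlapped through the young culture of animal 2, and the difference was 40.3 ± 24.8 points (exact permutation P = 0.062, n = 6). The other 4 sites differed by 20.3 to 35.2 points in the same direction with exact permutation P of 0.094 to 0.219 (n = 6), so the call of this site and the lack of one at its neighbors do not show that they differ from each other. Leaving out animal 2 brought the called site to 49.6 points.

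The fourth losing stretch lay at 699.5 kb, directly before a run of unmethylated sites, and had no called site (positions 49649143 to 49649173, 5 sites, plus strand). Its young cultures had 22.0%, 25%, 33.2%, 30.6%, 23.4% and 56.6% and its old cultures 27.2%, 5.00%, 16.0%, 28.8%, 17% and 0%. The young culture of animal 6 stood apart from the other young cultures, its old culture lay near that of animal 2, and the animal had a difference of 56.6 points. The means were 31.8% ± 12.9 and 15.7% ± 11.5, a difference of 16.1 ± 22.0 points (SD, n = 6), which was 8.04 points without animal 6, so that the stretch was then no longer losing. Its 5 sites differed by 9.5 to 19.7 points.

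Against the whole table, 4 of the 13 RORA stretches of at least 3 sites were losing and 0 were gaining, where 2.79% of 61932 stretches were losing and 0.99% gaining. Of the 6 RORA stretches with an intermediate level, 4 were losing, where 7.1% of 20028 intermediate stretches were. The definition has no test behind it, and these counts are descriptions of a gene chosen with results known.

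**Figure D3:**
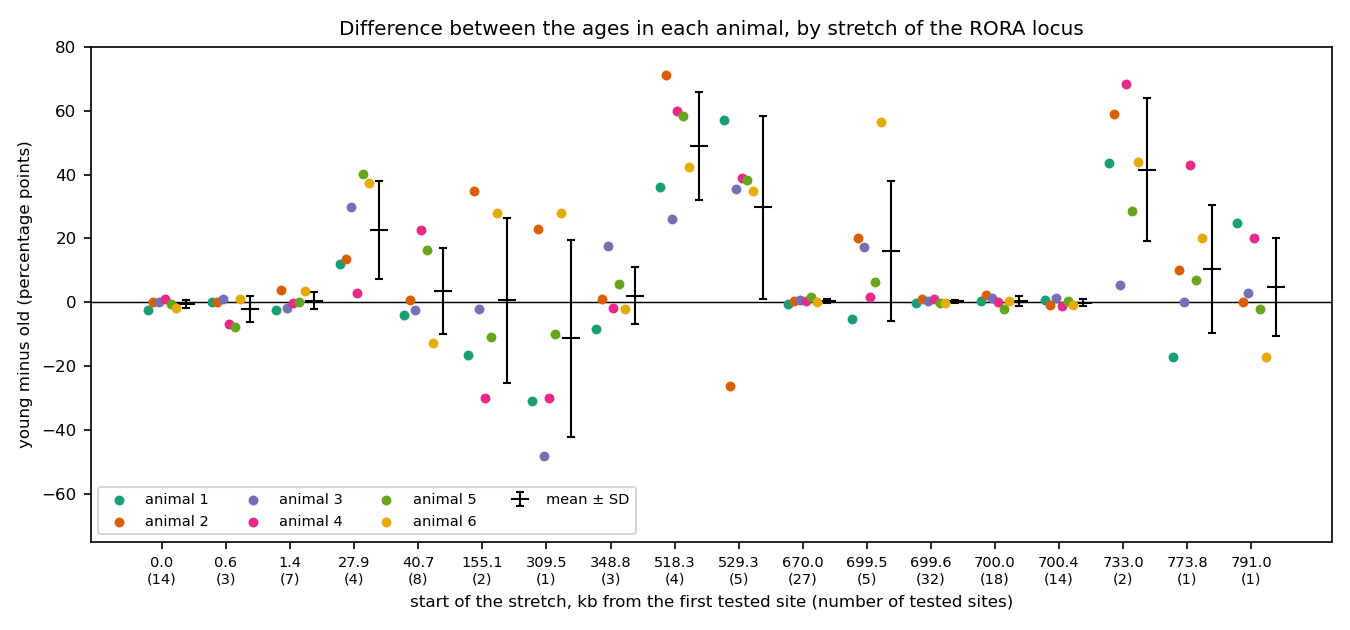
Difference between the young and the old culture of each animal (percentage points, vertical axis, positive where young is higher) for the 18 stretches, pairs and single sites of RORA, by their start in kb from the first tested site and their number of sites (horizontal axis). Bars give the mean ± SD of 6 animals. At 27.9, 518.3 and 733.0 kb all 6 animals lie above 0, at 529.3 kb animal 2 lies below it, at 699.5 kb animal 6 lies far above the others, and the unmethylated stretches lie close to 0.

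Other methylated parts of the locus did not show such a difference in their means, but on few reads and with wide spreads over the animals. The stretch at 348.8 kb had 62.5% ± 8.16 in young and 60.4% ± 14.3 in old cultures over 3 sites, a difference of 2.06 ± 8.90 points with young higher in 3 of 6 animals (SD, n = 6). Its middle site, 49298547, was nonetheless called. There young cultures had 62%, 75%, 33%, 57%, 54% and 88% and old cultures 61%, 50%, 17%, 56%, 50% and 73%, so the ages overlapped almost fully while each animal was higher when young, by 1 to 25 points. The difference of 10.3 ± 9.83 points had an exact permutation P of 0.031 with the pairing and of 0.379 without it (n = 6 per age), and the quasi-binomial model on reads, which keeps the pairing, gave an unadjusted P of 0.331. A difference as large was seen at 34657 of all tested sites. The sites on either side of it differed by 0 and by -4.17 points.

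The stretch at 40.7 kb, the longest of the methylated ones, had 8 sites on the plus strand whose levels rose along it, but not at every step (positions 48990411 to 48990553). In young cultures the site means ran from 5.33% to 55.5%, the lowest at 48990415 and the highest at the last site. Over the stretch the ages had 27.1% ± 8.35 and 23.7% ± 8.16, a difference of 3.44 ± 13.4 points with young higher in 3 of 6 animals. The differences of its sites ran from -8.5 to 18.3 points. One of them, 48990493, differed by 10.7 ± 11.9 points with young higher in 5 of 6 animals (exact permutation P = 0.094, n = 6). Over the whole stretch single animals moved widely in both directions, from -12.9 points in animal 6 to 22.8 points in animal 4. Its nearest tested neighbor by coordinate was the losing stretch at 27.9 kb.

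The remaining methylated sites were few and imprecise. The pair at 155.1 kb had 53.8% ± 17 and 53.2% ± 19.4, with single animals between -30.0 and 35.0 points. The single site at 309.5 kb (49259190) was the only one of the locus at least 10 points higher in old cultures, with 42.0% ± 31.9 against 53.3% ± 6.80. That difference of -11.3 ± 31.0 points was within the spread (exact permutation P = 0.375, n = 6), and old was higher in 4 of 6 animals. The last tested site, 49740739, was highly methylated at both ages with 91.2% ± 10.01 and 86.3% ± 11.6. The site at 773.8 kb (49723468) had 18.8% ± 20.1 and 8.33% ± 13.9 (exact permutation P = 0.312, n = 6).

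The 7 low-level stretches held most of the tested sites and had 0 called sites. Their 115 sites averaged 1.02% ± 0.194 in young and 0.874% ± 0.310 in old cultures, a difference of 0.151 ± 0.483 points with young higher in 4 of 6 animals (SD, n = 6). The difference of this mean was smaller than its spread over the animals. In them 91.2% of single values were 0%, and the highest value of any culture was 33%. No site of these stretches differed by 10 points, and 112 of the 115 differed by less than 5. The site 49649357, given above with an unadjusted P below 0.05 in the paired test, lies in one of them. The longest run, at 699.6 kb (49649310 to 49649608), had 32 sites with 0.896% ± 0.762 and 0.599% ± 0.302. The run at 670.0 kb (49619739 to 49619941) had 27 sites with 0.858% ± 0.448 and 0.364% ± 0.316, and the run at 700.0 kb (49649709 to 49649926) had 18 sites with 1.45% ± 0.998 and 1.05% ± 1.31.

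The best covered sites with no change all lay in the run at 699.6 kb. Of the sites with a low level, 36 had at least 10 reads in every culture and a difference below 5 points. The most reads among them were at 49649399, with 31.7 reads on average and 0% in all 12 cultures, and at 49649376, also 0% in all 12 with 31.6 reads. At 49649368 the young cultures had 1.83% ± 4.49 and the old cultures 0%. No intermediate and no highly methylated site of RORA had both that coverage and a difference so small. Only the intermediate sites 48977653, 48977654, 49478984 and 49478986 had that coverage, all in losing stretches, and no highly methylated site had it. The lack of well covered methylated sites with no change thus says little about the methylated sites as a whole.

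Agreement between the animals was looked at over the 36 sites outside the low-level stretches. The young culture was the higher one at 21, 20, 25, 27, 29 and 28 of these sites in animals 1 to 6, and the old culture at 13, 9, 8, 9, 6 and 8. In each animal more of the 36 sites were thus higher when young, but these include the 10 called sites, picked by P below 0.05 in these data. In animal 1 the young culture was higher at every called site, and the sites left without them were more often higher when old. Sites on both strands of a CpG or on shared fragments are counted separately here. The median difference over these sites was 5.5 points in animal 1, 20.5 in animal 2, 11.5 in animal 3, 17 in animal 4, 15 in animal 5 and 24.5 in animal 6. Young was higher in 5 or 6 animals at 17 of the 36 sites and in all 6 at 6 sites, while old was higher in 5 or 6 animals at 0 sites. Animal 2 had 5 sites at which the old culture was at least 25 points higher, the most of any animal.

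**Figure D4:**
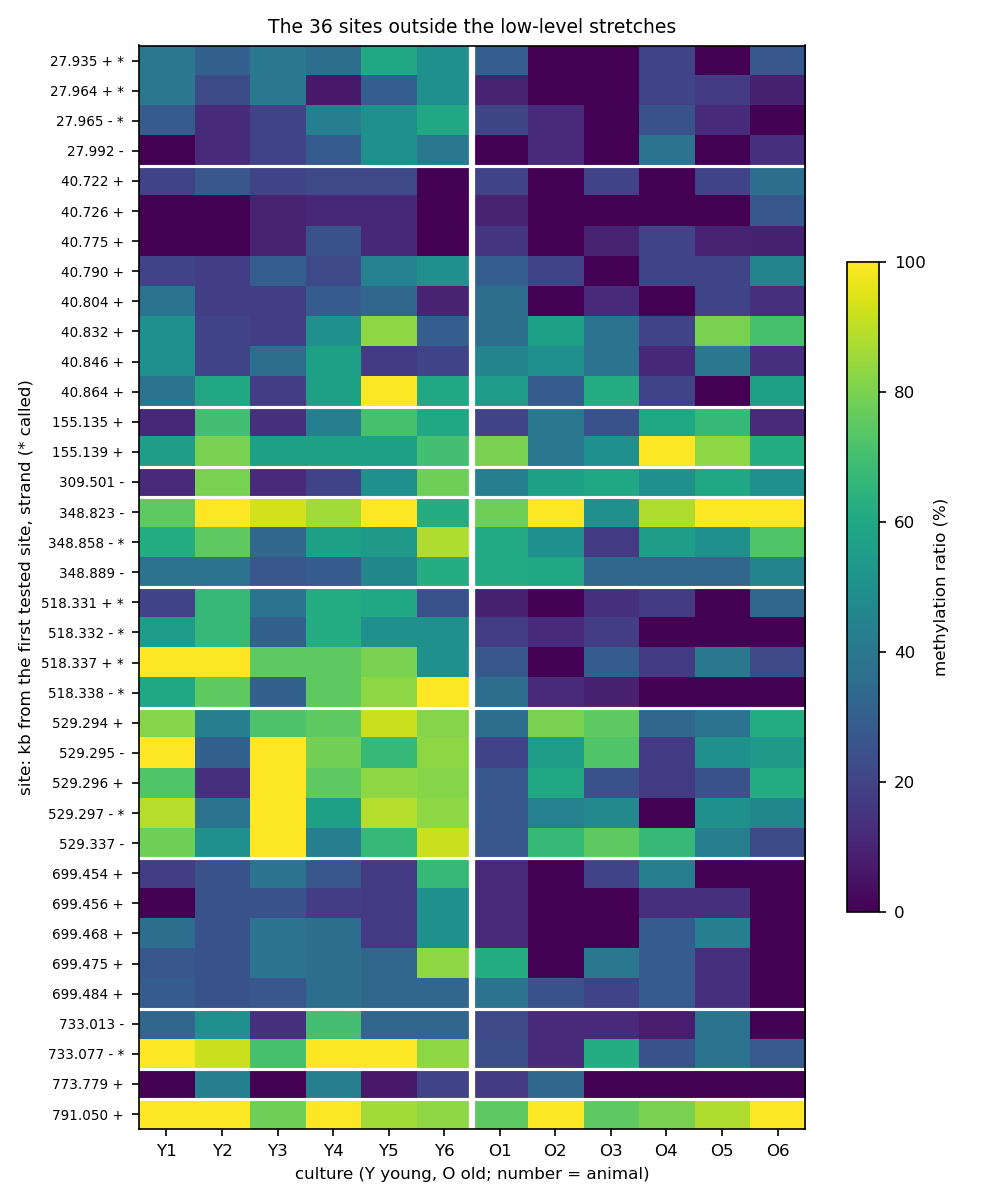
Methylation ratio (percent, color) of the 36 RORA sites outside the low-level stretches (rows, by distance in kb from the first tested site and strand, with an asterisk at called sites) in the 6 young and 6 old cultures (columns, numbered by animal), with white lines between stretches. The 4 rows from 518.331 to 518.338 kb are dark in the old cultures and lighter in the young ones, and in the 4 rows from 529.294 to 529.297 kb the young culture of animal 2 is darker than the other young cultures.

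Where both strands of a methylated CpG were tested, they gave differences of the same sign. The 5 such CpGs had differences of 22.3 and 24.0 points (48977653), 33.2 and 44.5 points (49468020), 57.5 and 61.2 points (49468026), 20.3 and 31.7 points (49478983) and 35.2 and 40.3 points (49478985) on the plus and the minus strand. Strands of a culture come from the same DNA and are not replicates. Of the 10 called sites, 6 had an even number of reads in all cultures.

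The 17 intermediate sites that were not called gave the following values. Several of the 17 lie in stretches with called sites, so they are not a separate set. The mean of the 17 was 48.2% ± 7.76 in young and 36.4% ± 2.31 in old cultures, a difference of 11.8 ± 9.52 points with young higher in 6 of 6 animals. By animal the difference ran from 1.24 points in animal 2 to 28.1 points in animal 6. Of the 17 sites, 13 had the higher mean in young cultures and 4 in old cultures. All 27 intermediate sites together had 52.1% ± 6.62 (45.1% to 62.0%) and 30.5% ± 1.70 (28.4% to 32.9%). The SD between animals was thus smaller in the old cultures, a difference that was not tested.

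Other genes of the RORA pathway were read from a list of 33 genes of the clock, the ROR coregulators and known targets, through the sites that the authors' list annotates to them. The authors' list holds only sites with P below 0.05 in the same paired comparison. The permutation P values below are thus given for sites already picked by these data and are no separate evidence. Of the 33 genes, 5 had a called site, 4 with sites more methylated in young cultures and 1 with a site more methylated in old cultures. Of all 838705 tested sites 9370 were called young (1.12%) and 4759 old (0.567%), but how many sites of the 33 genes were tested is not known here, so their counts cannot be read against these shares. BHLHE40, a clock repressor, had 3 promoter sites (chromosome 22, positions 21500305, 21500336 and 21500340), with 24.5% ± 20.1 against 0%, 35.7% ± 25.2 against 12.3% ± 12.3 and 16.8% ± 7.57 against 3.33% ± 5.32, each higher when young in 6 of 6 animals (exact permutation P = 0.031, n = 6). CYP27A1, an enzyme that makes an oxysterol, had 2 promoter sites (chromosome 2, positions 107463127 and 107463136), which differed by 22.0 ± 12.4 and 43.2 ± 17.8 points (exact permutation P = 0.031 each, n = 6). In BHLHE40 and in CYP27A1 the sites of the gene lie close together on the same strand, so they are not separate measurements. NPAS2, a partner of ARNTL, had an exon site with 68.5% ± 16.2 and 33.8% ± 21.4, and HLF, a clock output factor, an intron site in a CpG island with 55.2% ± 14 and 33.3% ± 24.5 (exact permutation P = 0.062 and 0.125, n = 6). CSNK1E, a kinase that phosphorylates PER proteins, had the 1 site that was higher in old cultures, with 75.0% ± 9.61 and 88.7% ± 8.98 in an exon (exact permutation P = 0.094, n = 6). RORB, NR1D1, NR1D2, ARNTL, CLOCK and NFKBIA had 0 called sites on the list. In all, the list gave 7 young sites and 1 old site.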

How the data were processed

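RRBS libraries of 12 dermal fibroblast cultures, 6 young and 6 old, were made by the authors' provider from genomic DNA cut with MspI per the labels, and with TaqαI and then MspI per the methods, and sequenced as paired-end reads on a HiSeq2000. The submitters' processing notes name CASAVA, FastQC 0.11.1, Trim Galore 0.3.7, Bismark 0.13.1 and the build bosTau8, which the methods pair with a further assembly name. Uniquely mapped reads were kept and overlapping mates were counted as 2 reads. The deposited methylation ratio is a fraction, C/(C + T), with 2 decimals, and the deposited read count is not normalized. Every position in the deposited table had at least 5 reads in all 12 cultures. The table marks the age of a culture by a letter only. The first letter was read as young because the table's difference is the first letter minus the second and the study lists positive differences as more methylated at the younger age, and every direction given rests on this reading. The filter acts on reads, not on levels, and all 151 RORA sites passed it. Total reads over all tested positions were 25962640 to 28820145 in young and 19007741 to 31643295 in old cultures. The deposited p-values, mean differences and significance list of the authors' own comparison were not used as results, and from the list only the annotation was taken.

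Positions are 1-based. The paired t-test of the methods was run on all 838705 sites pairing the cultures of an animal. Calls had P below 0.05 before adjustment and a mean difference of at least 10 points, with Benjamini-Hochberg values beside it. Cultures of an animal carry the same number in the labels. Their deviations from the mean of their age correlated with a median of 0.0435 (-0.00240 to 0.0899), against -0.0133 between animals. Named sites were tested two-sided by exact permutation of the 64 sign patterns, and an exact permutation test over 924 splits where the pairing was ignored. Named were all called sites, all sites the authors annotated to RORA, the 3 best covered unchanged sites per level class, all losing stretches and the 3 unchanged stretches with most sites, other members being given by their ranges or as the rest of the locus. The members, the stretch definition and the gene list were chosen with earlier results of these data known. All 33 symbols of the list were in the RefSeq gene table of ARS-UCD2.0, an assembly whose coordinates were not used, and 1 gene of the list is not reported here. No sequence is shown because no genome of the files' build was used here. The tests were checked on simulated data. Alternatives were other minimum differences, at least 10 reads, no pairing, limma, the exact test, a quasi-binomial model on reads with its dispersion held at 1 or more, merged strands, adjusted P, pooled reads, other level and position limits, other stretch rules and each animal left out. The software was Python 3.11.15, numpy 2.4.6, pandas 2.3.3, scipy 1.17.1, statsmodels 0.14.6, matplotlib 3.10.9, R 4.3.3 and limma 3.58.1.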

Additional observations from a re-analysis of the deposited data

Results flagged for a closer look

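Single cultures far from the other 5 of their age were looked for in 48 groups of 6 values, and 3 were found, where chance gives about 1 in 20. At 49468027 the old culture of animal 1 had 36% methylation, apart from the other 5 old cultures at 0% to 12%. The young culture of that animal, at 60%, was still higher. In the stretch at 348.8 kb (49298512 to 49298578) the old culture of animal 3 had 33.3%, below the other old cultures at 59.0% to 72.7%. That animal also had the lowest young value there, 51.0%. In the stretch at 699.5 kb (49649143 to 49649173) the young culture of animal 6 had 56.6%, above the other young cultures at 22.0% to 33.2%, while its old culture had 0%. The mean difference of that stretch was 16.1 points with animal 6 and 8.04 points without it. The part of depth or sample handling in these values was not tested.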

How the results depend on the processing

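Of the 10 RORA sites called more methylated in young cultures, 3 were among the 40 sites that had 10 or more reads in each of the 12 cultures. These were 48977653, 48977654 and 49478986, with exact permutation P of 0.094, 0.062 and 0.062 (n = 6). No site with an exact permutation P of 0.031 met this limit. The sites at 518.3 kb had as few as 8 reads in a culture and 49682766 as few as 6, so they were removed. The exact sign-flip test called 6 sites and the Benjamini-Hochberg adjustment 0. Leaving out 1 animal gave 6 to 10 calls, the 6 without animal 3. The paired analysis with limma, with the animal as replicate block, gave 10 and the test with no replicate block 13. The other settings gave 7 to 11. No setting called a site more methylated in old cultures, with the count at an unadjusted P below 0.05 and no minimum difference also 0. The mean difference of 4.34 points over all sites was 3.03 points with at least 10 reads and 18.9 points over sites with a mean level between 10% and 90%, both changes of the sites averaged. It was 4.09 to 4.71 points without 1 animal, and 3.58, 4.23 and 5.22 points with pooled reads, merged strands and the narrowed window. The 4 losing stretches were 4, 3 and 5 with joins at 50 bp, at 200 bp and with at least 2 sites, and 3 to 4 without 1 animal. The stretch at 699.5 kb was the one lost in both cases, without animal 6 and with joins at 200 bp, where it joined the unmethylated run after it. These stretch settings were chosen after seeing the data. No setting reversed the direction of the calls, of the mean over all sites or of a losing stretch. The small differences of other stretches could change sign without 1 animal, among them at 155.1 kb from 0.583 to -6.3 points without animal 2, at 40.7 kb from 3.44 to -0.425 points without animal 4 and at 348.8 kb from 2.06 to -1.07 points without animal 3. At single sites the exact test over 5 animals cannot go below 0.062, so leaving out an animal says nothing there about stability. Ignoring the pairing, 49298547 lost its exact P below 0.05, and the quasi-binomial model, which keeps the pairing, gave it 0.331. A ratio of a single culture may rest on 5 reads. With at least 10 reads the test of each kept site was unchanged, so the lower count reflects only the called sites that the filter removed.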
